A study of Mus musculus with 8 samples.

Results

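Fc gamma receptors bind the constant part of IgG and let macrophages take up and react to antibody-coated particles. The genes described here are the 4 mouse receptors Fcgr1, Fcgr2b, Fcgr3 and Fcgr4, the shared signalling chain Fcer1g, the neonatal receptor Fcgrt, the kinase Syk and the lipid phosphatase Inpp5d. They were chosen by name, through their Ensembl identifiers, and are 8 of the 55421 genes listed in the deposited table. All 8 were among the 13933 genes tested. RNA was sequenced from primary mouse bone marrow derived macrophages (BMDMs), cells grown from marrow towards the macrophage lineage, at day 7 of differentiation. There were 4 libraries of WT cells and 4 of cells labelled Baf60a KO, and the series title gives C57 mice as the source of all of them. Smarcd1 encodes Baf60a, which belongs to the SWI/SNF complexes that remodel chromatin. The sources used here do not give the knockout allele, any Cre driver or the age of the mice. They also do not say that replicates are separate mice or cultures, and p-values then describe only how these libraries vary, which may be technical.

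Activating Fc gamma receptors (Fcgr1, Fcgr3 and Fcgr4) carry no signalling motif of their own and pair with the common gamma chain encoded by Fcer1g. When receptors are clustered by immune complexes, Src family kinases phosphorylate the tyrosine motif (ITAM) of this chain and Syk docks on it, which starts actin remodelling and uptake. Fcgr2b is the inhibitory receptor: its own motif (ITIM) recruits phosphatases, chiefly SHIP1, the product of Inpp5d. Fcgrt encodes the neonatal Fc receptor FcRn, which binds IgG in acidic endosomes together with B2m and returns it to the surface.

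Of the 8 members 0 passed the test between Baf60a KO and WT (limma, Benjamini-Hochberg adjusted p under 0.05 over all genes tested), against 5.61% of all genes tested. At an unadjusted p under 0.05 there were 5 members, all higher in KO, where 22.3% of all genes reached this p in either direction and 15.9% with higher values in KO. These 5 were Inpp5d, Fcgr1, Fcgr3, Fcgrt and Fcgr4, with mean TPM 1.30, 1.23, 1.18, 1.12 and 1.21 times that of WT. Fcer1g, Syk and Fcgr2b had higher unadjusted p, and the means of Syk and Fcgr2b were lower in KO. The groups did not overlap for 2 of the 8 members, Fcgrt and Inpp5d, both higher in KO; this held for 15.8% of all genes, and 11.9% of all genes were separated with KO higher. The median log2 fold change of the members was 0.21, beside 0.03 over all genes tested, and 6 of the 8 were above 0, as were 57.5% of all genes. With 8 genes, these counts describe the members and are no test of them.

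Fcgr2b and Fcgr3 share sequence, which bears on how far their values can be read apart. In the GENCODE M21 transcripts the coding sequences of Fcgr2b-204 (1023 bases) and Fcgr3-201 (804 bases) were 96.5% identical over 509 aligned bases. Both encode similar IgG-binding domains, while their intracellular parts differ. The longest run without a mismatch was 129 bases and is shown because a 51-base read from it fits both genes. It spans exons 5 and 6 of Fcgr2b-204 (chr1:170967980-170968081 and chr1:170966674-170966700, mm10, minus strand) and exons 3 and 4 of Fcgr3-201 (chr1:171057691-171057792 and chr1:171054167-171054193, minus strand).
Fcgr2b and Fcgr3, shared coding run: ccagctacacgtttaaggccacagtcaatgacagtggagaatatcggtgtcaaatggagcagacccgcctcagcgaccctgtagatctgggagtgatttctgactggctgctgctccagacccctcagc
Of all 51-base windows in the annotated transcripts of each gene, 163 were shared between them, which was 9.41% of those of Fcgr3 and 2.87% of those of Fcgr2b. With all other genes counted, 393 windows of Fcgr2b (6.91%) were shared with any of 144 genes, Fcgr3 included. For Inpp5d it was 43 windows (0.56%) and 285 genes. No 51-base window of Fcgr1, Fcgr4, Fcer1g, Fcgrt or Syk occurred in a transcript of another gene. Fcgr4 was 64.7% identical to Fcgr2b over 465 bases and 64.4% identical to Fcgr3 over 455 bases, with no identical run longer than 14 bases. Values of Fcgr2b and Fcgr3 are therefore also given as a sum.

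The promoters of 3 activating receptors and Inpp5d are shown, chosen after their values were seen. They were picked because these genes had higher means in KO and each holds the ETS core GAGGAA, so the choice is no evidence of a link. This core is the kind of site bound by the macrophage factor PU.1, and its reverse complement reads TTCCTC. Sequences are from RefSeq (GRCm38.p6), 5′ to 3′ on the gene's strand, and each gives the last 120 of the 250 bases searched before the annotated start. Capitals mark matches.
Fcgr1 (chr3:96293970-96294089, minus strand): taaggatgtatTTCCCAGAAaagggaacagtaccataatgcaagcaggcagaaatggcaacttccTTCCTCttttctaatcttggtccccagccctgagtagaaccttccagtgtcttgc
Fcgr3 (chr1:171059404-171059523, minus strand): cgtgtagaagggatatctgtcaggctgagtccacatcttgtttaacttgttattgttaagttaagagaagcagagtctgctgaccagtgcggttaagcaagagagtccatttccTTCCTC
Fcgr4 (chr1:171018806-171018925, plus strand): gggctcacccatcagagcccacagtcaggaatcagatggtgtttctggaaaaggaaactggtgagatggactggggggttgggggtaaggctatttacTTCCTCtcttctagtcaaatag
Inpp5d (chr1:87620192-87620311, plus strand): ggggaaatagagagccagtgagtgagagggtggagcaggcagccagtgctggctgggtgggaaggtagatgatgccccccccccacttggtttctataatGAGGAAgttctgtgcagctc
All 8 members matched a RefSeq promoter, with 10 annotated starts between them. The ETS core was found, on either strand, in 6 of the members' 10 windows, which belong to Fcgr1, Fcgr3 (both starts, whose windows overlap), Fcgr4, Syk (1 of 2 starts) and Inpp5d, and in 23.3% of 32851 such windows over all genes. It was absent from the windows of Fcgrt and Fcer1g, whose means were higher in KO, and of Fcgr2b, whose mean was lower. Syk, which held the core, had a lower mean in KO. The STAT motif TTCNNNGAA was found in Fcgr1 alone, 109 bases before the start, where 7.02% of all windows held it. TATAAA was found in none of the members and in 12.4% of all windows. No match overlapped another. These are letter matches, not measured binding.

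Several facts of the libraries frame these values. Values are TPM, a level corrected for transcript length that sums to 1000000 in every library, so read depth per library is unknown. Smarcd1, the targeted gene, was at 14.0 to 16.3 TPM in WT and 9.91 to 10.9 in KO, and fell (log2 fold change -0.47, SE 0.061, limma adjusted p = 0.00756); its transcript was thus lower, not absent, in the KO libraries. WT replicates 3 and 4 stood apart in their share of TPM from genes annotated as processed pseudogenes, with 12.004% and 12.2%, beside 6.78% to 8.38% in the other 6 libraries. Of all genes tested, 613 (4.4%) rose and 169 (1.21%) fell in KO. The split was 516 and 404 with median-of-ratios scaling, 440 and 254 with quantile normalization, 598 and 321 with TPM rescaled over protein-coding genes, and 201 and 171 without WT replicates 3 and 4. Leaving out WT replicate 2 or 4 gave 447 or 229 calls, and leaving out each KO library in turn gave 228, 217, 212 and 156.

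Markers of the labelled cell type were abundant. Cd68 was at 1322 to 1662 TPM in WT and 1742 to 1823 in KO, and rose. Itgam, an integrin chain of myeloid cells, was at 50.2 to 64.6 and 70.2 to 84.3 TPM and rose. Lyz2, the macrophage lysozyme and the most abundant of the list, fell from a range of 3726 to 4309 TPM to one of 1809 to 2068 (log2 fold change -1.05). The 7 macrophage markers summed to 5643 to 6552 TPM in WT and 4120 to 4462 in KO, and Lyz2 was the largest part of this sum. Of the 7, 2 rose and only Lyz2 fell, so the lower sum in KO does not describe the list as a whole. Adgre1 (249 to 301 and 297 to 323 TPM), Csf1r (90.8 to 111 and 114 to 122), Mertk (10.4 to 13.8 and 12.9 to 15.8) and Mrc1 (67.9 to 90.4 and 66.2 to 77.0) did not pass. Of the other cells that carry Fc receptors, 5 of 6 B cell markers, 6 of 6 NK and T cell markers and 5 of 6 mast cell and basophil markers were under 1 TPM in every library. The exceptions were Cd79b (1.47 to 2.81 TPM in WT, 1.91 to 2.40 in KO) and Mcpt8 (1.90 to 2.59 and 1.45 to 2.35), neither of which passed. The B cell list summed to 1.69 to 3.03 TPM in WT and 1.98 to 2.64 in KO, the NK and T cell list to 0.33 to 0.87 and 0.06 to 0.30, and the mast cell and basophil list to 2.05 to 3.45 and 1.57 to 2.46. Neutrophil markers summed to 191 to 283 TPM in WT and 147 to 235 in KO, with 0 of 4 tested members called. Most of the sum was S100a9 (110 to 167 TPM in WT, 86.2 to 134 in KO) and S100a8 (49.2 to 76.1 and 42.1 to 72.8). Ngp was at 24.9 to 35.1 TPM in WT and 15.3 to 23.7 in KO (log2 fold change -0.48, limma adjusted p = 0.0934). Ly6g did not exceed 1.15 TPM. Stromal markers summed to 3696 to 4066 TPM in WT and 4432 to 4724 in KO, and 4 of 7 tested rose; of 4 endothelial markers 2 rose. The part of these shifts in the values of the members was not tested. In bulk RNA, fewer cells of a type and less RNA per cell cannot be told apart.

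Fcer1g was the most abundant member in both groups. Its mean was 4.59 times that of Fcgr3 in WT and 4.16 times in KO, on the TPM scale, which is corrected for length. In WT the order of mean TPM was Fcer1g, Fcgr3, Syk, Fcgrt, Fcgr1, Fcgr2b, Inpp5d and Fcgr4. In KO it was the same down to Fcgr1, followed by Inpp5d, Fcgr2b and Fcgr4. Neighbours in this order had ranges that did not overlap, except Fcgr1 with Fcgr2b and Fcgr2b with Inpp5d in WT, and Inpp5d with Fcgr2b in KO. Inpp5d was above Fcgr2b in 4 of 4 KO libraries, and Fcgr2b above Inpp5d in 3 of 4 WT libraries. Among the genes tested, Fcer1g stood at percentile 98.4 of mean TPM and Fcgr4, the lowest member, at percentile 62.4.

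**Figure D1:**
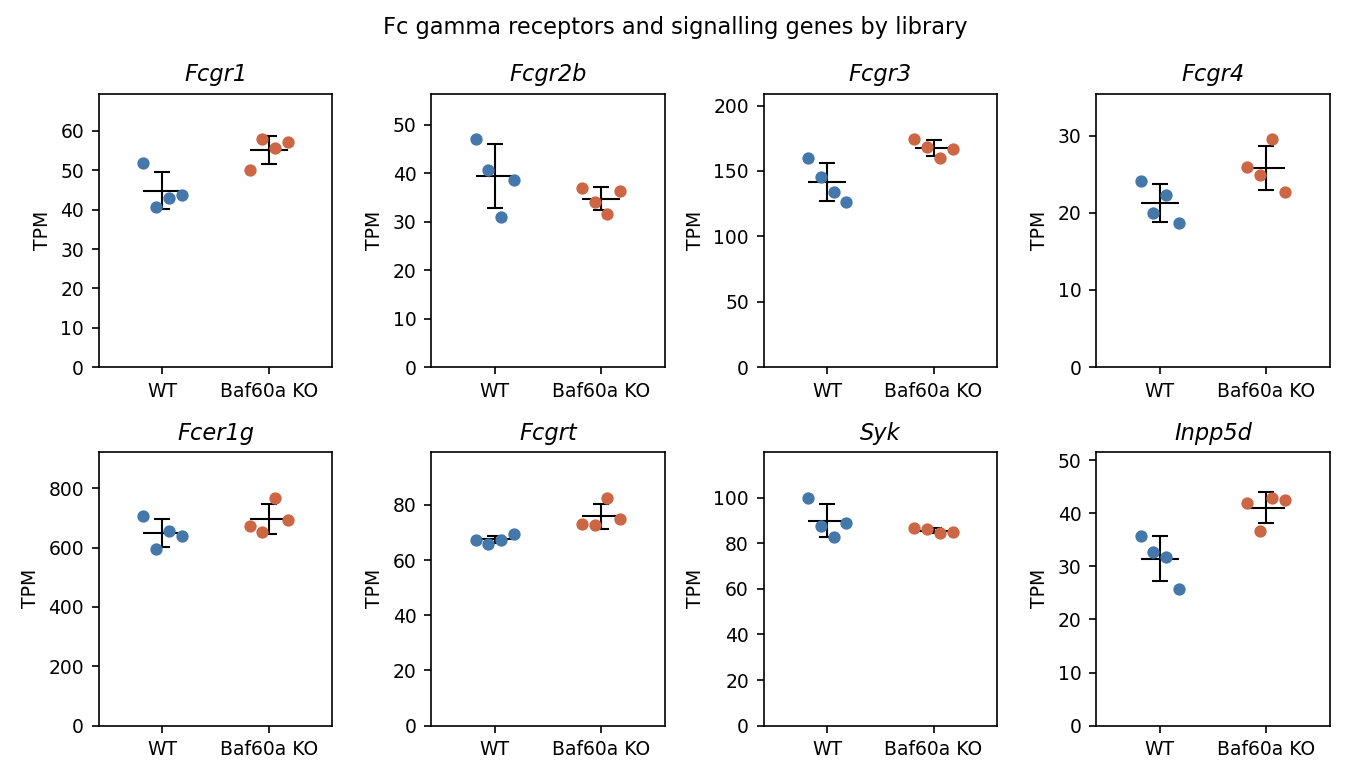
TPM of each member in the 4 WT and 4 Baf60a KO libraries (replicates 1 to 4 from left to right within a group; the vertical axis starts at 0 and differs between panels). Points are libraries, the horizontal mark is the group mean and the bar ± 1 SD; only Fcgrt and Inpp5d have groups that do not overlap.

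Fcgr1 (chromosome 3, 96282909 to 96293969, mm10, minus strand) encodes CD64, the high-affinity receptor that binds monomeric IgG. In WT replicates 1 to 4 it stood at 51.7, 40.7, 43.1 and 43.8 TPM, and in the KO replicates at 50.1, 57.9, 55.7 and 57.2. WT replicate 1 lay above KO replicate 1, so the groups overlapped, and the other 3 WT libraries lay under every KO library. The mean went from 44.8 ± 4.78 (SD, n = 4) to 55.2 ± 3.55 TPM, a log2 fold change of 0.30 (SE 0.079, 95% interval 0.12 to 0.48, limma adjusted p = 0.0631). Without WT replicate 1, the library that made the groups overlap, the change was 0.37 and passed (adjusted p = 0.0204). In the other alternatives the change did not pass. It was 0.25 without WT replicate 2 (adjusted p = 0.122) and 0.26 without WT replicates 3 and 4 (adjusted p = 0.168).

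Fcgr3 (chromosome 1, 171051174 to 171064935, minus strand) encodes CD16, a low-affinity receptor for immune complexes, and was the most abundant of the 4 receptors. It was at 160.0, 145.7, 134.2 and 126.1 TPM in WT and at 174.4, 168.7, 159.9 and 166.7 in KO. WT replicate 1 was level with KO replicate 3, and the other WT libraries were lower than all KO libraries. The log2 fold change was 0.25 (SE 0.071, 95% interval 0.08 to 0.41, limma adjusted p = 0.0819). It was 0.31 and passed without WT replicate 1 (adjusted p = 0.0273), and was 0.13 without WT replicates 3 and 4 (adjusted p = 0.182).

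Fcgr4 (chromosome 1, 171018920 to 171029761, plus strand) encodes an activating receptor that prefers certain IgG subclasses and was the lowest of the 8 members. It was at 24.1, 20.0, 22.3 and 18.6 TPM in WT and at 25.9, 24.9, 29.5 and 22.7 in KO. The groups overlapped, with KO replicate 4 between WT replicates 1 and 3. The log2 fold change was 0.27 (SE 0.098, 95% interval 0.04 to 0.49, limma adjusted p = 0.152).

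Fcgr2b (chromosome 1, 170958617 to 170976547, minus strand), the inhibitory receptor, was at 47.1, 40.8, 31.1 and 38.5 TPM in WT and at 37.0, 34.1, 31.6 and 36.3 in KO. WT replicate 3 was the lowest of all 8 libraries and the other 3 WT libraries were the highest, so the groups overlapped through that library. The log2 fold change was -0.16 (SE 0.11, 95% interval -0.42 to 0.10, limma adjusted p = 0.453), and -0.33 without WT replicates 3 and 4 (adjusted p = 0.0746). With 1 library left out it lay between -0.27 (without WT replicate 3) and -0.07 (without WT replicate 1) and did not pass. The antisense gene Gm38204, which overlaps Fcgr2b on the other strand, was listed at 0 in all libraries.

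**Figure D2:**
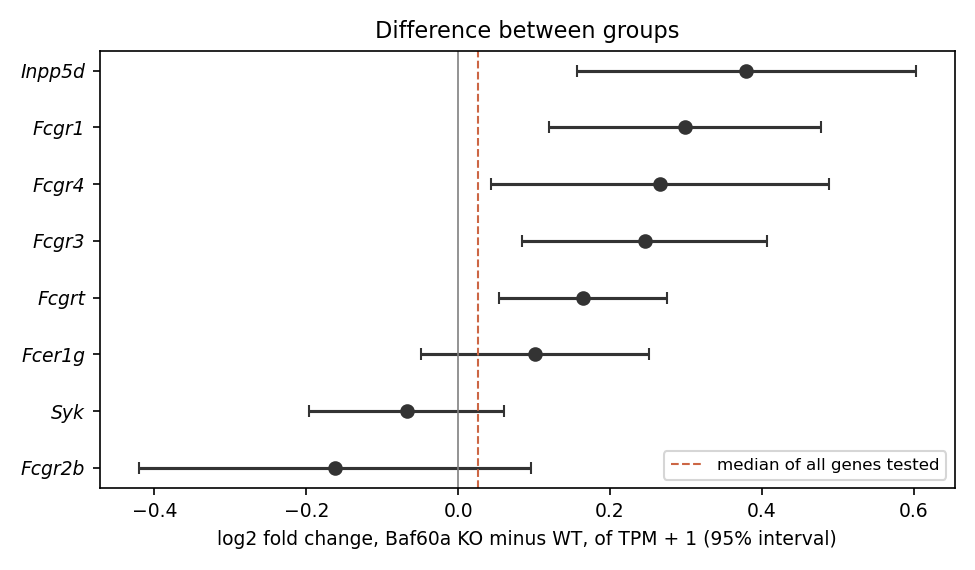
Log2 fold change of each member (Baf60a KO minus WT on the log2(TPM + 1) scale, limma, 4 libraries per group) with its 95% interval; the dashed line is the median of all genes tested, 0.03. The intervals of Fcgr2b, Syk and Fcer1g include 0; those of the other 5 members do not, though none of the 8 passed after adjustment over all genes.

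The share of the inhibitory receptor among the 4 Fc gamma receptors was lower in every KO library than in every WT library. Of the summed TPM of Fcgr1, Fcgr2b, Fcgr3 and Fcgr4, Fcgr2b made up 16.6%, 16.5%, 13.5% and 17.0% in the WT libraries and 12.9%, 11.9%, 11.4% and 12.8% in KO. WT replicate 3 lay nearest to the KO libraries. The means were 15.9% ± 1.62 and 12.3% ± 0.709 (SD, n = 4), a difference of -3.62 percentage points. No test is given, since this is a score over chosen genes. The shares of Fcgr1, Fcgr3 and Fcgr4 overlapped between the groups.

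The ratio of Fcgr3 to Fcgr2b TPM was 3.40, 3.57, 4.32 and 3.27 in WT and 4.71, 4.95, 5.05 and 4.59 in KO, again without overlap. The ratio of the 3 activating receptors summed to Fcgr2b was 5.35 ± 0.719 in WT and 7.17 ± 0.478 in KO. The sum of Fcgr2b and Fcgr3, given because reads of their shared stretches may be divided between them, was 165 to 207 TPM in WT and 192 to 211 in KO, with overlap. The sum of Fcgr1 and Fcgr4, which share no 51-base window with another gene, was 60.8 to 75.8 TPM in WT and 76.0 to 85.3 in KO; WT replicate 1 came within 0.2 TPM of KO replicate 1. The 4 receptors together summed to 247 ± 25.5 TPM in WT and 283 ± 4.61 in KO, with overlap.

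**Figure D3:**
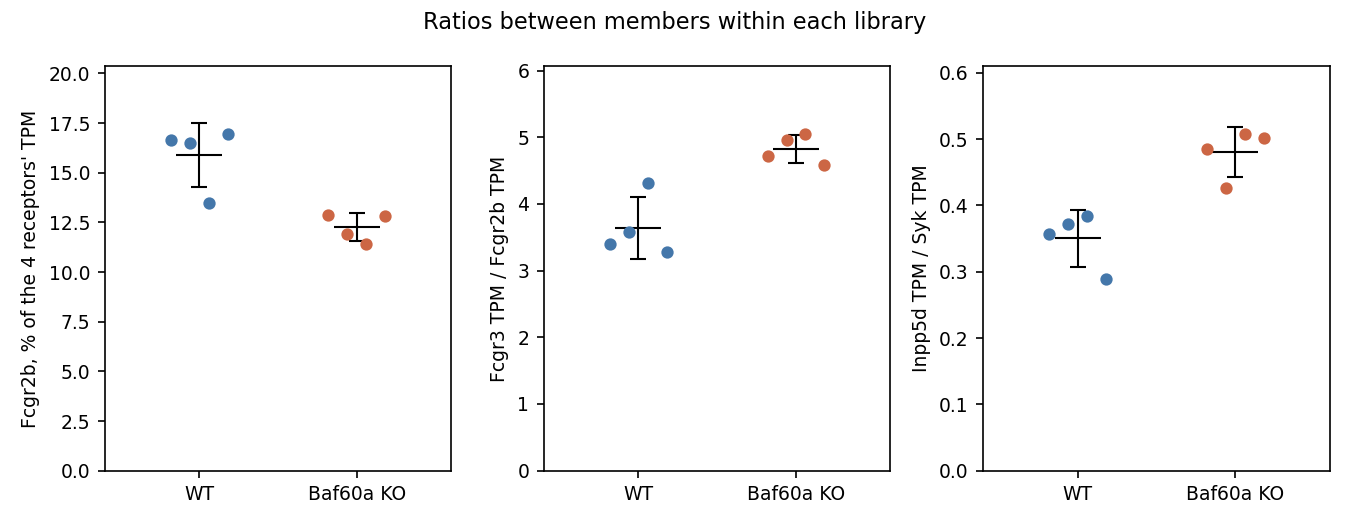
Within-library ratios of TPM for the 4 WT and 4 Baf60a KO libraries: the share of Fcgr2b among the 4 Fc gamma receptors (left), Fcgr3 over Fcgr2b (middle) and Inpp5d over Syk (right). Points are libraries (replicates 1 to 4 from left to right), marks and bars are mean ± 1 SD, and in each panel the groups do not overlap. The left and middle panels both rest on Fcgr2b and Fcgr3 values and are not separate results. The right panel is not separate from the Inpp5d values, which alone did not overlap between the groups. Among ratios not shown, the shares of Fcgr1, Fcgr3 and Fcgr4 and Fcer1g over the 3 activating receptors overlapped between the groups. The 3 activating receptors over Fcgr2b, and the share of Fcgr2b in the sum of Fcgr2b and Fcgr3, did not overlap.

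Fcer1g (chromosome 1, 171229572 to 171234365, minus strand), the ITAM chain needed for surface expression of the activating receptors, was at 707.0, 594.7, 654.9 and 640.4 TPM in WT and at 672.3, 653.3, 768.1 and 692.3 in KO. The groups overlapped widely, with the second highest value in a WT library. Its log2 fold change was 0.10 (SE 0.066, 95% interval -0.05 to 0.25, limma adjusted p = 0.418). The chain exceeded the 3 activating receptors summed by 3.14 ± 0.240 times in WT and 2.81 ± 0.234 times in KO, and these ratios overlapped.

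Syk (chromosome 13, 52583173 to 52648792, plus strand), the kinase that reads the phosphorylated chain, was at 99.96, 87.7, 82.7 and 89.0 TPM in WT and at 86.6, 86.0, 84.5 and 84.8 in KO. The KO libraries were tightly grouped inside the range of WT. The log2 fold change was -0.07 (SE 0.056, 95% interval -0.20 to 0.06, limma adjusted p = 0.541), and -0.13 without WT replicates 3 and 4 (adjusted p = 0.202).

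Inpp5d (chromosome 1, 87620312 to 87720507, plus strand) encodes SHIP1, which removes a phosphate from the lipid product of PI3-kinase. It had the smallest p of the members. It was at 35.7, 32.6, 31.8 and 25.7 TPM in WT and at 42.0, 36.6, 42.9 and 42.6 in KO, so that every KO library was higher than every WT library, KO replicate 2 by the least (0.9 TPM above WT replicate 1). The means were 31.5 ± 4.21 and 41.0 ± 2.96 TPM (SD, n = 4). The log2 fold change was 0.38 (SE 0.098, 95% interval 0.16 to 0.60, limma adjusted p = 0.0593). It passed without WT replicate 1 (0.44, adjusted p = 0.0408) and with TPM rescaled over protein-coding genes (0.36, adjusted p = 0.0484). In no other alternative did it pass. The change was smallest, 0.26, when WT replicates 3 and 4 were both dropped (adjusted p = 0.104). Dropping WT replicate 4 alone gave 0.29 (adjusted p = 0.0874). The fit that dropped KO replicate 3 had the largest adjusted p, 0.151, at a change of 0.36. The ratio of Inpp5d to Syk TPM was 0.357, 0.372, 0.385 and 0.288 in WT and 0.485, 0.426, 0.508 and 0.502 in KO, without overlap. Since Inpp5d TPM alone did not overlap between the groups, this ratio is not a separate result.

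Fcgrt (chromosome 7, 45092990 to 45103851, minus strand), the neonatal receptor, was at 67.3, 65.9, 67.3 and 69.3 TPM in WT and at 73.1, 72.7, 82.6 and 74.9 in KO. Every KO library was higher than every WT library, and KO replicate 3 was the highest. The log2 fold change was 0.16 (SE 0.048, 95% interval 0.05 to 0.27, limma adjusted p = 0.0865), and it did not pass with any 1 library left out. Its partner B2m stood at 2598 ± 217 TPM in WT and 2709 ± 205 in KO (log2 fold change 0.06, adjusted p = 0.697), which was 38.5 ± 3.37 and 35.7 ± 1.83 times the level of Fcgrt.

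Deviations from the group means were compared between members over the 8 libraries, as a description, since all values of a library share its scaling. Fcgr2b and Syk deviated together most closely (Pearson r = 0.88), followed by Fcer1g with Fcgrt (0.74), Fcgr2b with Fcgr3 (0.73), Fcgr4 with Fcer1g (0.72) and Fcgr3 with Syk (0.72). Fcgrt and Fcgr3 had the lowest value (-0.47). Of 9436 protein-coding genes with mean TPM over 5, those most like Inpp5d within groups were Rbm38 (r = 0.998), Pstpip2 (0.992), Psma1 (0.992) and Mgst3 (0.985). Those most like Fcer1g were Npdc1 (0.98), Uba7 (0.97), Sike1 (0.97) and Mndal (0.95). Picked as the highest of so many genes over 8 libraries, such values can be near 1 by chance and show no link.

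Fcgr2b, Fcgr4 and Fcgr3 lie in that order within 106 kb of chromosome 1, and 276 kb separate the lowest coordinate of Fcgr2b from the highest of Fcer1g. Within 150 kb of these genes 21 protein-coding genes were tested, 17 of them not members. Of these neighbours, Adamts4, a matrix protease, rose (7.03 ± 0.553 TPM in WT, 9.19 ± 0.510 in KO, log2 fold change 0.35, limma adjusted p = 0.0285), 0 fell and 16 did not pass. Their median log2 fold change was 0.08, between -0.07 (Dusp12) and 0.35. This 1 call among 17 neighbours stands beside 5.61% of all genes tested, a similar share. Inside the cluster the mean TPM of Fcgr4 and Fcgr3 was higher and that of Fcgr2b lower in KO, but none of the 3 passed and the groups overlapped for each. Fcrla and Fcrlb, Fc receptor-like genes of B cells beside Fcgr2b, did not exceed 0.21 TPM.

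**Figure D4:**
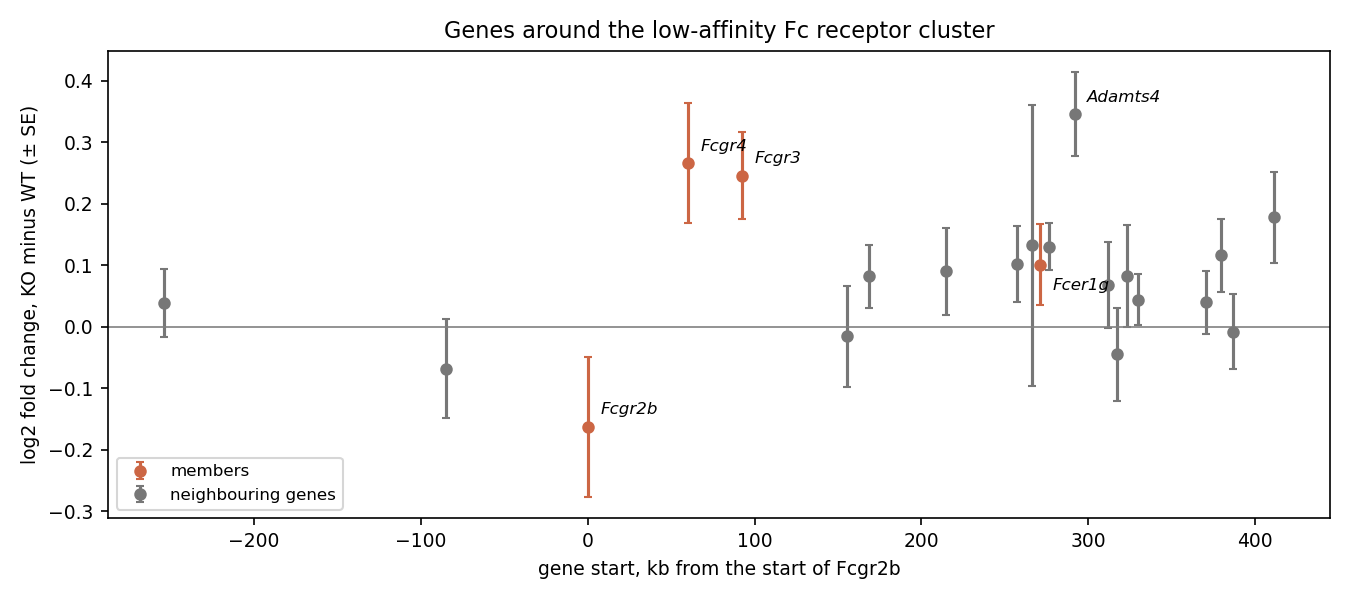
Log2 fold change (Baf60a KO minus WT, log2(TPM + 1) scale, 4 libraries per group, bars ± 1 SE) of the 21 tested protein-coding genes around the cluster, by the distance of their lowest coordinate from that of Fcgr2b in kb. Fcgr4 (0.27) and Fcgr3 (0.25) lie above 0 and Fcgr2b (-0.16) under 0; Adamts4 (0.35) is the gene that passed the test.

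Genes around the receptors were taken from 6 lists by role. Of 117 listed genes 98 were tested; 17 rose, 1 fell and 80 did not pass, so 18.4% were called, beside 5.61% of all genes tested. The lists were chosen with earlier results of these data known, so their share is a description and no independent evidence. The median log2 fold change was 0.07, beside 0.03 for all genes. The count of 18 was 9 or 4 when WT replicate 2 or 4 was left out, 4, 7, 4 and 4 when each KO library was, and 5 when WT replicates 3 and 4 both were. Ptpn6, Gsn, Fcrls and Clec4e kept the call with each of the 8 libraries left out, and the other 14 lost it at least once. In the same comparison 2 of 7 macrophage markers rose and 1 (Lyz2) fell, and 4 of 7 tested stromal markers rose; their part in these counts was not tested.

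Of 17 tested genes listed as inhibitors of Fc receptor signalling 4 rose, 0 fell and 13 did not pass (median log2 fold change 0.03). Ptpn6, the phosphatase SHP-1 that docks on ITIM receptors, was at 38.1, 38.4, 34.98 and 35.4 TPM in WT and at 54.8, 51.6, 57.6 and 53.7 in KO. All KO libraries stood well above all WT libraries, with a log2 fold change of 0.56 (SE 0.051, limma adjusted p = 0.00159). Inppl1, the SHIP2 relative of Inpp5d, rose (51.5 ± 3.23 TPM in WT, 61.5 ± 3.77 in KO, log2 fold change 0.25, adjusted p = 0.0463). Csk (0.25), the kinase that restrains Src family kinases, also rose, as did Ptprj (0.27), a receptor phosphatase that can also activate these kinases. Inppl1 and Ptprj lost the call in all 8 fits that left out 1 library, with largest adjusted p of 0.112 (WT replicate 4 left out) and 0.105 (KO replicate 4 left out). Csk lost it in 7, with a largest adjusted p of 0.107 (KO replicate 4 left out).

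Of 9 tested kinases of the Src and Tec families 1 rose and 8 did not pass, and all 9 log2 fold changes were above 0 (median 0.15). Over all genes tested, 4.4% rose and 57.5% were above 0. Lyn, which phosphorylates both ITAM and ITIM, was at 29.4 ± 1.97 and 32.8 ± 0.794 TPM (adjusted p = 0.127). Blk and Zap70 of lymphocytes were too low to be tested.

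Downstream of Syk, 3 of 31 adaptors, exchange factors and lipid enzymes rose, 0 fell and 28 did not pass (median log2 fold change -0.0048). Pik3cd, a leukocyte PI3-kinase subunit, rose from 8.99 ± 0.675 to 11.5 ± 0.244 TPM (0.33, limma adjusted p = 0.0251). Crk (0.18) and Bcl10 (0.22), both signalling adaptors, also rose. Without WT replicates 3 and 4, and so with 2 fewer libraries, their log2 fold changes were 0.24, 0.19 and 0.17 and did not pass (adjusted p of 0.0701, 0.0780 and 0.101). Lat2, the most abundant of the list, was at 603 ± 67.6 and 540 ± 12.9 TPM (adjusted p = 0.283).

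Of 28 genes of the actin machinery 4 rose, 0 fell and 24 did not pass (median log2 fold change 0.07). Gsn, the actin-severing protein gelsolin, which stromal cells also express, rose from 327 ± 7.33 to 407 ± 9.65 TPM (0.32, SE 0.034, limma adjusted p = 0.00324). Coro1a (0.33), a coronin of leukocytes, Myo1f (0.27), a leukocyte myosin, and Arpc5 (0.17), a subunit of the Arp2/3 complex, also rose. With those 2 WT libraries left out, the log2 fold changes of these 3 were 0.30, 0.21 and 0.13 (adjusted p of 0.0691, 0.0698 and 0.0822).

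Of 13 other Fc receptors, Fc-binding proteins and Fc receptor-like genes 4 were tested, 2 rose and 2 did not pass. Fcrls, a scavenger-like relative of the Fc receptors, was at 12.4, 12.01, 13.3 and 13.9 TPM in WT and at 18.3, 16.9, 18.7 and 18.7 in KO (log2 fold change 0.46, limma adjusted p = 0.00756). Fcrl1 was at 1.88 ± 0.169 and 2.82 ± 0.403 TPM and rose (adjusted p = 0.0491), a call lost in all 8 fits with 1 library left out (adjusted p up to 0.120 without WT replicate 4). The IgE receptor genes Fcer1a and Ms4a2 did not exceed 0.14 TPM in any library.

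Of 16 genes listed with the other ITAM chains, related adaptors and receptors that pair with Fcer1g 9 were tested, of which 3 rose, 1 fell and 5 did not pass. Tyrobp, the adaptor DAP12, rose from 1256 ± 73.8 TPM in WT to 1495 ± 40.5 in KO (log2 fold change 0.25, limma adjusted p = 0.0260). Among lectins that signal through Fcer1g, Clec4e (Mincle) fell from 158 ± 6.60 to 94.6 ± 3.87 TPM (-0.73, adjusted p = 0.000195), while Clec4n (Dectin-2) rose from 133 ± 8.44 to 162 ± 11.6 TPM (0.28, adjusted p = 0.0440). Hcst, the adaptor DAP10, which holds no ITAM, also rose (0.60). With WT replicates 3 and 4 left out, the log2 fold changes of Tyrobp, Hcst and Clec4n were 0.22, 0.42 and 0.23 and did not pass (adjusted p of 0.0733, 0.0646 and 0.106).

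**Figure D5:**
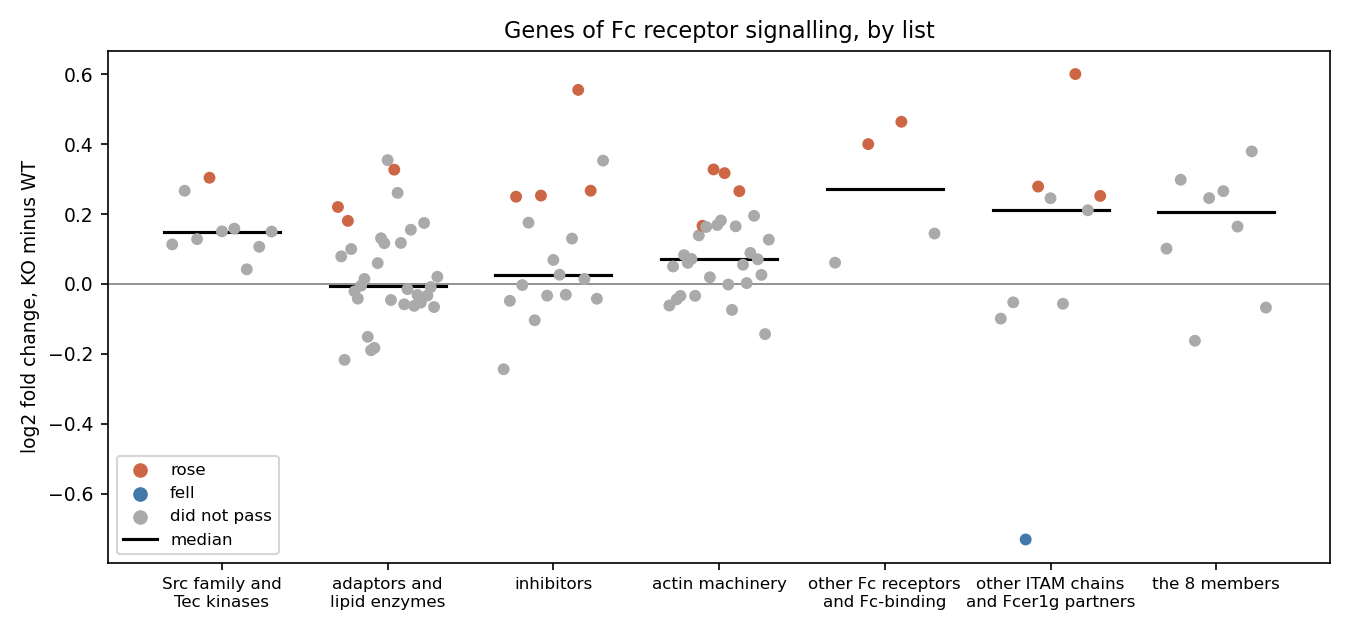
Log2 fold change (Baf60a KO minus WT on the log2(TPM + 1) scale) of each tested gene in the 6 lists around the Fc gamma receptors and of the 8 members, 1 point per gene in alphabetical order, with the list median as a line. Points are coloured by whether the gene rose, fell or did not pass (limma adjusted p under 0.05); 17 list genes rose, Clec4e fell, and 0 of the 8 members passed.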

How the data were processed

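RNA was profiled in 8 libraries of mouse BMDMs, grouped by the sample titles. Salmon 1.2.0, bcl2fastq and build mm10 are named per the submitters' processing notes, with annotation and options not given in the sources used here. As deposited, the authors' table holds 1 TPM value per gene and library; the unit was read from the values, as each library summed to 1000000. Since depth is lost in TPM, no interval for counting error is given.

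Of 55421 identifiers 55240 matched a GENCODE M21 symbol (the same assembly as mm10). The 13933 genes above 1 TPM in 4 or more libraries were fitted with limma 3.58.1 in R 4.3.3 on log2(TPM + 1), where changes of low genes come out too small. The model held the group alone and a mean-variance trend, with Benjamini-Hochberg adjustment. "Rose" and "fell" mean adjusted p under 0.05. The fit was tried on simulated data with independent noise for each gene. That noise held no shift shared by a whole library, so the trial does not cover such shifts. Values of some genes are not reported here. Coding sequences were compared with BLAST 2.17.0; the planned protein comparison was not run, and motifs were searched in the 250 bases before each start and not after it. The members and lists were chosen with earlier results of these data known. Named genes are the members, called or most abundant list genes, tested neighbours within 150 kb, and genes most like 2 members. Alternatives covered pseudocount, filter, variance model, scaling, library weights, replicate number and left-out libraries.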

Additional observations from a re-analysis of the deposited data

Results flagged for a closer look

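Extreme libraries were looked for in 22 groups of 4 values (TPM of the 8 members and 3 ratios, in each group), where chance marks about 1 in 20, and 2 were found. Inpp5d in KO replicate 2 was at 36.6 TPM, apart from the other 3 KO libraries. The share of Fcgr2b among the 4 receptors in WT replicate 3 was 13.5%, apart from the other 3 WT libraries.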

How the results depend on the processing

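No member changed direction in any of the 18 alternatives. The count of members called was 0 in the analysis given above, 1 (Inpp5d) with TPM rescaled over protein-coding genes, and between 0 and 3 with 1 library left out, the 3 being Fcgr1, Fcgr3 and Inpp5d without WT replicate 1; it was 0 in the other alternatives. The count over all genes, 782, was 364 without a filter on low values, 372 without WT replicates 3 and 4 and between 156 and 679 with 1 library left out. The pathway count, 18, was 7 without the filter, 5 without WT replicates 3 and 4 and between 4 and 13 with 1 library left out; fewer libraries give fewer residual degrees of freedom. The replicate number as a block gave 209 calls over all genes, 5 pathway genes and 0 members. Same-numbered libraries deviated from their group means with correlations of -0.11, 0.01, 0.01 and -0.02. No pairing by number was seen, but with 4 libraries per group these values cannot exclude a shared mouse or culture day. The Fcgr2b share differed by between -4.43 and -3.27 percentage points with 1 library left out and by -4.52 of the sum of Fcgr2b and Fcgr3. The share of Fcgr2b and Fcgr3 taken as a pair differed by -1.82 percentage points, and its groups overlapped. Depth is unknown, and transcript forms cannot be told apart at gene level.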
